A study of Saccharomyces cerevisiae with 16 samples.

Results

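Amino acid permeases are plasma membrane proteins that carry amino acids into the yeast cell, and 10 of their genes are described here across a course of phosphate starvation: GAP1, AGP1, DIP5, MUP1, CAN1, GNP1, BAP2, BAP3, TAT1 and TAT2. They were taken by gene name and are 10 of the 6648 named genes of the expression table. The 16 RNA sequencing libraries came from Saccharomyces cerevisiae of BY4741 background, and all are labelled with the genotype pho84pr-YFP, a fluorescent reporter driven by the promoter of the phosphate transporter gene PHO84, and delta-phm4, a deletion. PHM4 is another name of VTC1, a subunit of the vacuolar polyphosphate polymerase. A single library was made in high phosphate medium at 0 min, and 15 were made at intervals of 15 min, up to 225 min, once the cells had been washed and placed in medium free of phosphate. The transcript of PHM4 was nevertheless listed in all 16 libraries, so the deletion is given here as a label only. The 0 min library has the same label as all others, no strain labelled with intact PHM4 was analysed, and each time point is 1 library of a single course, so successive libraries stand in for replicates. Levels are CPM, the read count of a gene per 1000000 reads of the genes listed in its library, and so a share of those reads.

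Yeast adjusts these permeases to the amino acids and the nitrogen source it finds. Amino acids outside the cell are sensed by Ssy1, which with Ptr3 and Ssy5 forms the SPS sensor; its output, the processed transcription factors Stp1 and Stp2, induces AGP1, GNP1, BAP2, BAP3, TAT1, TAT2 and other permease genes. GAP1 is the best known target of nitrogen catabolite repression, in which the GATA activators Gln3 and Gat1 act when preferred nitrogen sources are scarce or TORC1 signalling is low. The BY4741 background is auxotrophic for amino acids and depends on permeases to take them up.

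Of the 16 libraries, 14 were deep, with 603370 to 3437661 reads recovered and 4694 to 5475 genes listed. Those labelled 195 and 210 min had 40984 and 45009 reads recovered, and a gene under 244 or 222 CPM has no value in them. These totals hold reads of listed genes only, so CPM in these 2 libraries stands higher than it would over all reads. VTC1, the gene labelled as deleted, was listed at 6.67 to 7.51 log2 CPM in the 14 deeper libraries, from 107 to 349 reads each, and at 10.80 and 10.90 in the libraries labelled 195 and 210 min, from 73 and 86 reads. These reads go against the deletion label in the deeper libraries too; which part of the gene they cover is not given in the sources used here. Compared with the average of its partner genes VTC2, VTC3 and VTC4, VTC1 stood 0.55 log2 units lower at 0 min, 2.01 to 3.40 lower in the deeper starvation libraries, and 0.62 and 0.86 higher in the libraries labelled 195 and 210 min. The latter pair thus also stands apart from the other 14, and is for this and its depth left out of the fits and given beside the results. PHO84 was 4.19 ± 0.31 log2 units above 0 min in the first hour (SD, 4 libraries), in the direction known for phosphate starvation. The 5 MATa marker genes were listed in all 14 deeper libraries, with highest levels of 2650 (MFA1), 3470 (MFA2), 617 (STE2), 206 (BAR1) and 63.3 CPM (STE6). The MATalpha marker STE3 was listed in all 14 as well, at up to 49.8 CPM, not far under STE6. SAG1 was listed in 12 (up to 19.8 CPM), MF(ALPHA)1 in 8 (up to 22.9 CPM) and MF(ALPHA)2 in none. At 0 min the median gene stood 0.30 log2 units under its mean over the deeper libraries, and a change of a gene relative to 0 min is read against that shift. In bulk RNA, fewer cells that express a gene and less of its RNA per cell cannot be told apart.

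The letters upstream of the permease genes were searched for 5 short motifs, which the rule did not use. The hexamer GATAAG, the core bound by GATA factors, was searched on both strands in the 600 bases before each start codon and occurs in 26.8% of 5999 such windows, with at least 2 matches in 4.92%. GAP1 has 5 matches, CAN1 has 3 and AGP1 has 2, and the other 7 permease genes have none. The hexamer CGGCTC, known from Stp1 and Stp2 binding, occurs in 8.02% of the windows. BAP3 has 2 matches, BAP2 and MUP1 have 1 each, and the other 7 have none. The permease windows held no match to CACGTG, the core bound by the phosphate regulator Pho4 and by Cbf1, which occurs in 7.23% of windows. TGACTC, the core bound by Gcn4, was found in 4 (AGP1, BAP2, MUP1 and CAN1; 15.3% of windows), which include genes with GATAAG and genes with CGGCTC upstream. The pentamer AGGGG, bound by Msn2 and Msn4, was found in 5 (39.7% of windows). These are matches of letters and not measured sites. For the 3 genes with GATAAG and for BAP2 and BAP3, the windows of 200 bases shown here run 5′ to 3′ on the coding strand. Capitals mark GATAAG (or its reverse complement CTTATC) and CGGCTC (or its reverse complement GAGCCG). The GAP1 window holds 3 of its 5 matches, and that of MUP1 is not shown. In build R64 the windows shown are chrXI:514720-514919 (plus strand) for GAP1, chrIII:78149-78348 (minus) for AGP1, chrV:33567-33766 (minus) for CAN1, chrII:375896-376095 (minus) for BAP2 and chrIV:550783-550982 (minus) for BAP3.
GAP1: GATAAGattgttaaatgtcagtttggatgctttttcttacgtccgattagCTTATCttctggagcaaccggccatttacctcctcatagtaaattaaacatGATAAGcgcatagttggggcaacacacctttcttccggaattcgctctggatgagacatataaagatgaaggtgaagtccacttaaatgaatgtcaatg
AGP1: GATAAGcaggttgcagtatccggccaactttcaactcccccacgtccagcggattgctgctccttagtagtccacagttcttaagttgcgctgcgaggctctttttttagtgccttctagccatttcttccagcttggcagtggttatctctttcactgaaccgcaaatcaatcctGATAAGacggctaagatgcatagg
CAN1: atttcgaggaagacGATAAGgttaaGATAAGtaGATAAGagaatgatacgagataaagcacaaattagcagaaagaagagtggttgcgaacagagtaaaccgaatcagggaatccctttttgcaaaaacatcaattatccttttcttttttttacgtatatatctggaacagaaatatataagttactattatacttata
BAP2: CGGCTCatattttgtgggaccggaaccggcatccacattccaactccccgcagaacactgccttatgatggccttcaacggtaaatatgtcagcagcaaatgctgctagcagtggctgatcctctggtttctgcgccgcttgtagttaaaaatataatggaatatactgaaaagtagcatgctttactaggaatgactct
BAP3: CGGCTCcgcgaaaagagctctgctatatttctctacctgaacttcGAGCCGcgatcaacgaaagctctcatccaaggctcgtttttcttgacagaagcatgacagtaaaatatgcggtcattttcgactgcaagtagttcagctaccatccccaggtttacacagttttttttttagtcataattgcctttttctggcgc

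The courses of the 10 genes parted in starvation. GAP1 and AGP1 rose, by 3.84-fold and 3.72-fold along a line fitted from 15 to 225 min, while no permease passed the test for a fall over these libraries; with the 0 min library added to the fit TAT1 passed as well, as a fall (-1.43, log2, limma adjusted p = 0.0449). Against the 0 min library, GAP1, AGP1 and DIP5 were higher, and TAT1 and BAP2 lower, in all 13 deeper starvation libraries. At 30 min AGP1 was higher by only 0.15 log2 units, less than the median gene rose. Over the 4495 genes listed in all 14 deeper libraries, 36.6% lay above and 12.7% below the 0 min library throughout, so a place above it was common. The other 5 genes lay on both sides of their 0 min level.

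**Figure D1:**
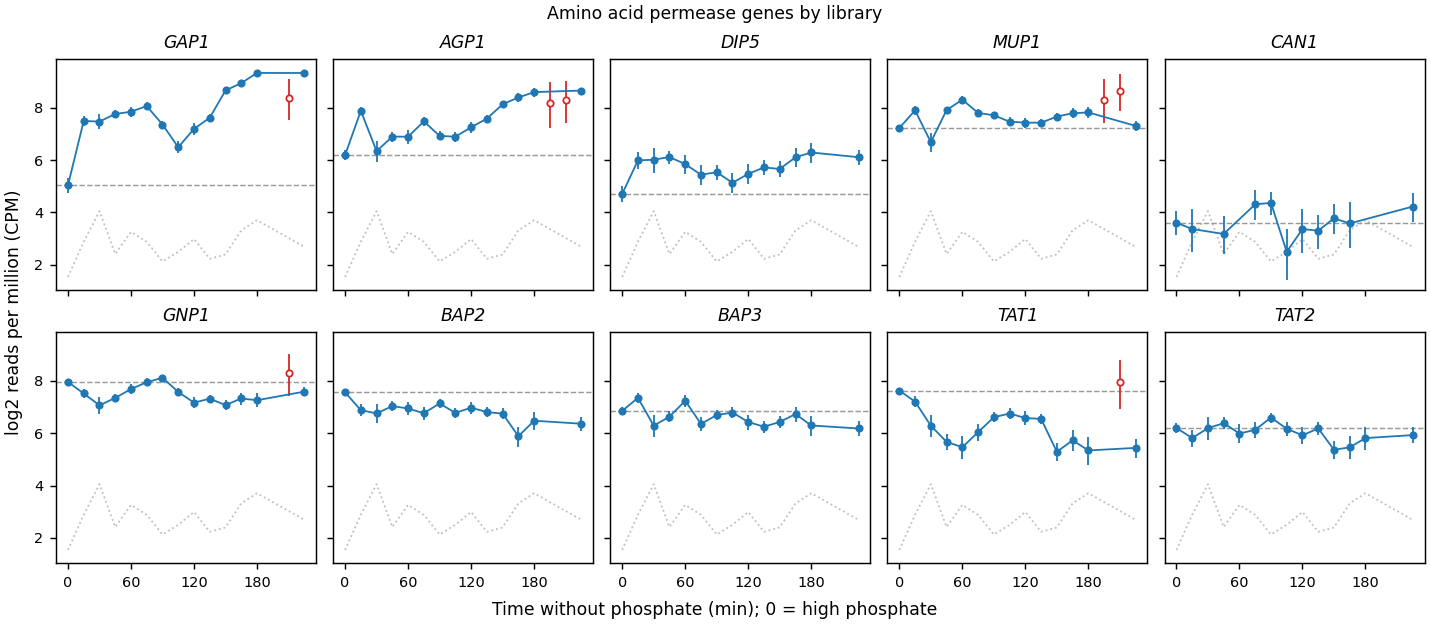
Level of each permease gene (log2 CPM, y axis) by time without phosphate (min, x axis). Blue points are the 14 deeper libraries with 95% Poisson intervals for counting error, joined by a line that bridges missing values; red open points are the libraries labelled 195 and 210 min; the dashed line is the 0 min level and the dotted line the lowest value a library lists. GAP1 runs from 32.9 CPM at 0 min to 641 CPM at 225 min with a low at 105 min, and TAT1 runs the other way, from 197 to 43.3 CPM.

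GAP1 encodes the general amino acid permease, which takes up nearly all amino acids, and lies on chromosome XI (515063 to 516871, plus strand, a single coding exon). Its level was 32.9 CPM at 0 min (27.1 to 39.5, 95% Poisson interval, which covers counting error only) and 180.2, 177, 217 and 230.1 CPM at 15, 30, 45 and 60 min. It was then 267, 164, 89.9 and 146 CPM at 75, 90, 105 and 120 min. From 135 to 180 min the 4 levels were 196, 403, 490.5 and 642 CPM, and that at 225 min was 641 CPM. The gene thus stood high from the first starvation library on, was low around 105 min, and reached its highest levels in the last deeper libraries. The interval at 105 min, 76.5 to 105 CPM, does not overlap that at 75 min, 240.4 to 296 CPM, and no deeper starvation library came near the 0 min level. The ratio to 0 min was 2.60 ± 0.19 on the log2 scale in the first hour (15 to 60 min), 2.24 ± 0.64 in the second (75 to 120 min) and 3.60 ± 0.73 in the third (135 to 180 min; SD, 4 libraries each), which is 6.08-fold, 4.71-fold and 12.1-fold. At 225 min it was 19.5-fold. The library labelled 210 min held 15 reads of GAP1, or 333 CPM (187 to 549.7), and that labelled 195 min did not list it.

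AGP1 encodes a permease of broad specificity that takes up asparagine, glutamine and many other amino acids, and lies on chromosome III (76018 to 77919, minus strand). Its level was 73.0 CPM at 0 min. In the first hour it was 236, 81.2, 119 and 119 CPM, so the 15 min library stood apart from the 3 that followed. In the second hour it was 178, 121, 119 and 152 CPM, and in the third 192, 279.9, 336 and 386 CPM, each library above the one before it; 225 min gave 403 CPM. Between 75 and 105 min AGP1 went from 178 to 119 CPM, where GAP1 went from 267 to 89.9 CPM. The ratio to 0 min was 0.81 ± 0.64, 0.95 ± 0.28 and 1.98 ± 0.44 (log2, SD, 4 libraries) in the 3 hours, and only the third, 3.95-fold, was past 2-fold. The libraries labelled 195 and 210 min held 12 and 14 reads, or 293 CPM (151 to 511) and 311 CPM (170.1 to 522), intervals that hold all 5 deeper levels from 135 min on.

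DIP5 encodes the permease for the acidic amino acids glutamate and aspartate, and lies on chromosome XVI (41043 to 42869, plus strand). Its level was 26.2 CPM at 0 min and 63.5, 64.6, 69.4 and 57.5 CPM in the first hour. In the second hour it was 43.4, 46.5, 35.1 and 44.5 CPM, all under the first-hour levels. In the third hour it was 52.7, 50.6, 68.9 and 78.3 CPM, and 225 min gave 69.1 CPM. The gene was 2.43-fold, 1.61-fold and 2.35-fold above 0 min in the 3 hours (log2 1.28 ± 0.11, 0.69 ± 0.18 and 1.23 ± 0.30). Centred on the median gene, the third-hour mean was 0.90, under 2-fold. The libraries labelled 195 and 210 min did not list DIP5, and their floors lie above every one of its levels.

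TAT1, which encodes a permease for tyrosine, tryptophan and branched-chain amino acids, ran against GAP1. It lies on chromosome II (376574 to 378433, minus strand), next to BAP2. Its level was 197 CPM at 0 min and 147, 77.9, 50.7 and 44.1 CPM in the first hour, each library under the one before it. In the second hour it was 65.5, 97.3, 107 and 95.3 CPM. In the third it was 93.2, 39.0, 52.9 and 40.4 CPM, with 43.3 CPM at 225 min. After 30 min TAT1 was thus highest where GAP1 was lowest, in the 4 libraries from 90 to 135 min, and was lower at 150 than at 135 min where GAP1 was higher. The intervals at 135 min (80.7 to 107 CPM) and 150 min (30.6 to 49.0 CPM) do not overlap. Its ratio to 0 min was -1.47 ± 0.78, -1.13 ± 0.31 and -1.90 ± 0.58 (log2), or 2.77-fold, 2.19-fold and 3.73-fold lower, and 4.56-fold lower at 225 min. The library labelled 210 min held 11 reads of TAT1, or 244 CPM (122 to 437). The floor of that library, 222 CPM, lies above every deeper level of TAT1. A value could thus be listed there only if it was higher, and it says nothing on the course. The annotation places TBRT, a non-coding RNA on the plus strand (376610 to 378633), across the TAT1 coding sequence and credits its transcription with repression of BAP2 and TAT1. Whether reads were counted by strand is not given in the sources used here, so reads of TAT1 and of TBRT cannot be told apart.

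BAP2 and BAP3 encode permeases for leucine, isoleucine and valine, and are 70.4% identical in coding sequence. BAP2 lies on chromosome II (373861 to 375690, minus strand), 883 bases from TAT1. Its level was 188 CPM at 0 min; over the 13 deeper starvation libraries the lowest was 58.9 CPM at 165 min, the median 109 CPM and the highest 140.3 CPM at 90 min. BAP2 therefore stood under its 0 min level in all 13, with its lowest levels from 165 min on. Its ratio to 0 min was -0.65 ± 0.12, -0.65 ± 0.18 and -1.08 ± 0.42 (log2) in the 3 hours, the last 2.11-fold lower. BAP3 lies on chromosome IV (548762 to 550576, minus strand). It was at 115 CPM at 0 min and ranged in starvation from 72.3 CPM at 225 min through a median of 85.9 CPM to 162 CPM at 15 min, with 2 libraries above and 11 below 0 min. The BAP3 ratio in the first hour, 0.02 ± 0.50, turns to -0.25 when libraries are centred on the median gene.

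GNP1, on chromosome IV (1466453 to 1468444, minus strand), encodes a permease for glutamine, leucine, serine and other amino acids, and is 72.6% identical to AGP1 in coding sequence. Its level was 248 CPM at 0 min, where it was also the highest of the 10 genes per length, and 133 CPM at 30 min, 277 CPM at 90 min and 192 CPM at 225 min, with a median of 162 CPM. GNP1 lay under its 0 min level in 12 of 13 deeper starvation libraries, all but that at 90 min. In the values as deposited the paralogues took opposite places: AGP1 lay above its 0 min level in all 13. For AGP1 this was narrow at 30 min, where its interval (60.1 to 107 CPM) overlaps that at 0 min (64.3 to 82.6 CPM). From 0 to 30 min the median gene rose more (5.97 to 6.22 log2 CPM) than AGP1 did (6.19 to 6.34). No stretch of 50 bases of any of the 10 coding sequences occurs elsewhere in the genome, and 23 stretches of 25 bases are shared by AGP1 and by GNP1 with other sequence, so short reads could be split between near copies at few positions. The library labelled 210 min held 14 reads of GNP1, or 311 CPM (170.1 to 522).

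TAT2, the high-affinity permease for tryptophan and tyrosine, lies on chromosome XV (286172 to 287950, plus strand). It stood at 73.3 CPM at 0 min and between 41.1 CPM (150 min) and 96.5 CPM (90 min) in starvation, with a median of 63.3 CPM. Its ratio to 0 min was -0.11 ± 0.25, 0.00 ± 0.28 and -0.49 ± 0.37 (log2) in the 3 hours. In the values as deposited it was therefore near its 0 min level until the third hour, where its 4 libraries gave 72.5, 41.1, 44.0 and 56.1 CPM. Centred on the median gene, the 3 ratios of TAT2 were -0.38, -0.32 and -0.83, so that nearness depends on the scaling.

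MUP1, the high-affinity methionine permease, lies on chromosome VII (599417 to 601141, plus strand). It stood at 149.5 CPM at 0 min and at 239, 103, 240.1 and 316 CPM in the first hour. The 30 min library, the shallowest of the deeper ones, was the only one of the 13 under the 0 min level. From 75 to 180 min the levels lay between 172 and 226 CPM, and 225 min gave 158 CPM. The libraries labelled 195 and 210 min listed 317 CPM (169 to 542) and 399.9 CPM (237 to 632), from 13 and 18 reads.

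CAN1, the arginine permease whose loss gives canavanine resistance, lies on chromosome V (31694 to 33466, minus strand) and was the least abundant of the 10 per length. It was listed in 11 of the 14 deeper libraries, at 12.2 CPM at 0 min and between 5.66 CPM (105 min) and 20.6 CPM (90 min) in starvation. It lay above 0 min in 4 and below it in 6 of the 10 starvation libraries that listed it. At 30, 60 and 180 min it was under the floor of 10 reads, which is 16.6, 9.59 and 13.05 CPM there. The floors at 30 and 180 min lie above its 0 min level, so those libraries do not tell whether it was lower. At 60 min it was under its 0 min level, but the floor there lies inside the 0 min interval (8.80 to 16.5 CPM).

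**Figure D2:**
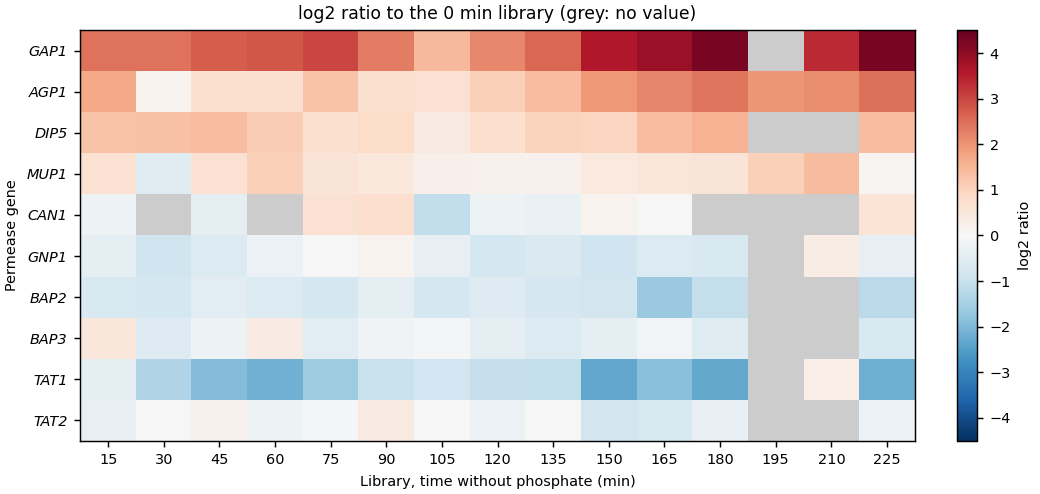
Log2 ratio of each permease gene (rows) to the single 0 min library, by library (columns, min without phosphate); red is higher, blue lower and grey marks no value. GAP1, AGP1 and DIP5 are red and TAT1 and BAP2 blue in all 13 deeper starvation libraries; the columns labelled 195 and 210 min rest on 11 to 18 reads per value.

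A gene was counted as past 2-fold where its mean log2 ratio to 0 min was at least 1 in size with the same sign in all 4 libraries of the hour. In the first hour GAP1 and DIP5 of the 9 complete permease genes were past it upwards, and TAT1 downwards. Over 4615 genes 16.0% were past it upwards and 8.49% downwards. In the second hour GAP1 was higher and TAT1 lower (10.8% and 3.91% of 5095 genes). In the third hour GAP1, AGP1 and DIP5 were higher and BAP2 and TAT1 lower (22.4% and 10.9% of 4897 genes). Centred on the median gene, the third hour had 2 permeases higher and 3 lower, DIP5 going out at 0.90 and GNP1 coming in at -1.05. The median ratio of the permeases was 0.02 in the first hour, 0.02 in the second and -0.43 in the third, against 0.28 and 0.36 over all genes in the first and the third. With 1 library at 0 min these ratios have no test, and an error of that library enters all of them alike. TAT1 was no longer past 2-fold in the second hour without the library of 75 min, nor BAP2 in the third without that of 165 min. AGP1 was past it in the first hour without the library of 30 min and in the second without that of 90 or 105 min.

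Change within starvation was tested over the 13 deeper starvation libraries. The log2 level was regressed on time with limma for 5282 genes, and calls needed an adjusted p under 0.05 (Benjamini-Hochberg) together with a fitted change of 2-fold or more between 15 and 225 min. Both permeases called rose: AGP1 by 1.89 ± 0.44 (log2, SE, n = 13; limma adjusted p = 0.0234) and GAP1 by 1.94 ± 0.56 (limma adjusted p = 0.047). In all 6.40% of genes were called, 3.10% as rising and 3.29% as falling. The fitted changes of TAT1 (-1.06 ± 0.49, limma adjusted p = 0.201), BAP2 (-0.70 ± 0.27, limma adjusted p = 0.124) and BAP3 (-0.69 ± 0.30, limma adjusted p = 0.184) did not pass. Where the 0 min library was added TAT1 passed, and BAP2 (-0.87 ± 0.25, limma adjusted p = 0.0271) missed only the 2-fold minimum. Over the 13 libraries the fitted changes of TAT2 (-0.50 ± 0.31), GNP1 (-0.16 ± 0.31), MUP1 (-0.13 ± 0.36), DIP5 (0.18 ± 0.33) and CAN1 (0.52 ± 0.64, n = 10) were within 2 SE of 0. At an unadjusted p under 0.05 there were 5 of 10 permeases, and 23.6% of all genes.

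**Figure D3:**
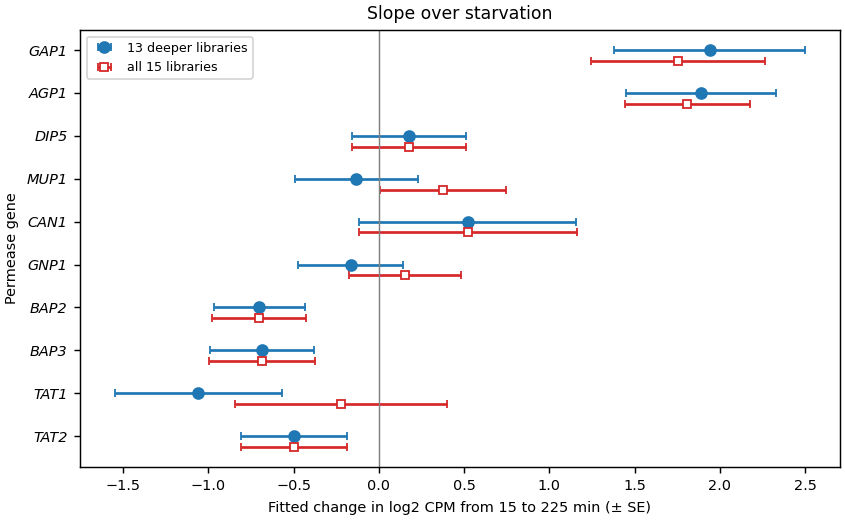
Fitted change of each permease gene from 15 to 225 min (log2, x axis) over the 13 deeper starvation libraries (10 for CAN1), with SE bars. AGP1 (1.89) and GAP1 (1.94) are the genes past the threshold; TAT1, at -1.06, is not.

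The AGP1 rise was called in all 9 other settings (limma adjusted p between 0.00482 and 0.0437) but lost when the library of 30, 165, 180 or 225 min was left out (up to limma adjusted p = 0.0999). GAP1 lay close to the threshold, with a limma adjusted p between 0.0089 and 0.0801 over the 9 settings. It was lost with all 15 starvation libraries in the fit (1.75, limma adjusted p = 0.0801), with libraries centred on the median gene (1.84, limma adjusted p = 0.0534), without the variance trend (limma adjusted p = 0.0552) and without the library of 15, 30, 75, 90, 150, 165, 180 or 225 min (limma adjusted p between 0.0502 and 0.182).

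A curve with 3 degrees of freedom was fitted to the same libraries to allow for courses that turn. AGP1 passed the moderated F test of limma (F = 11.7, adjusted p = 0.0309), as did 2.73% of all genes, and GAP1 did not (F = 7.07, limma adjusted p = 0.0804). The AGP1 curve was lost without the library of 45, 90, 165 or 180 min (limma adjusted p between 0.0505 and 0.0822), and without that of 225 min GAP1 and DIP5 passed too (limma adjusted p = 0.00306 and 0.0428). The remaining permeases did not pass it with all 13 libraries, TAT1 with its turn at 60 to 105 min included. At an unadjusted p under 0.05 there were 3 of 10 permeases and 20.0% of all genes.

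The hours were also compared with each other over 12 libraries and 5012 genes, CAN1 not being tested for want of values. Between the second and the third hour limma called 0 of 9 permeases and 0.319% of genes, and 7 of 9 permeases against 26.8% of genes had an unadjusted p under 0.05. GAP1 differed by 1.36 ± 0.35 (log2, SE; limma adjusted p = 0.067), AGP1 by 1.04 ± 0.29 (limma adjusted p = 0.0784) and DIP5 by 0.55 ± 0.18 (limma adjusted p = 0.0932). TAT1 differed by -0.77 ± 0.36, TAT2 by -0.50 ± 0.22, GNP1 by -0.46 ± 0.20 and BAP2 by -0.43 ± 0.20 (limma adjusted p between 0.159 and 0.185). With the autocorrelation of successive libraries removed, GAP1 was called (1.38, limma adjusted p = 0.0455, and up to 0.0748 over the 6 settings tried). The autocorrelation estimated for the hour contrasts was slightly negative (-0.055, against 0.24 for the slope). That setting therefore did not allow for a likeness of neighbouring libraries. Without the 135 min library AGP1, GAP1 and TAT1 were called (limma adjusted p = 0.0119, 0.00391 and 0.0421), and GAP1 and AGP1 also against the first hour; AGP1 was called without that of 15 min and GAP1 without that of 75 min. Between the first and second hours limma called 0 of 9 permeases and 0.200% of genes; DIP5 (-0.59 ± 0.18, limma adjusted p = 0.143) was the 1 permease with an unadjusted p under 0.05 (15.9% of genes). Between the first and the third hour it called 0 of 9 and 0.0599% of genes, with AGP1, GAP1 and BAP2 at an unadjusted p under 0.05 (16.8% of genes).

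The make-up of the permease transcripts changed more than their sum. The 10 genes summed to 1115 CPM at 0 min, 896 CPM at 30 min (9 listed), 1015 CPM at 105 min, 1748 CPM at 180 min (9 listed) and 1740 CPM at 225 min. GAP1 and AGP1 together made up 9.50% of that sum at 0 min, 20.6% at 105 min, 58.8% at 180 min and 60.0% at 225 min. TAT1 went from 17.7% to 2.49% between 0 and 225 min, and BAP2 from 16.9% to 4.71%.

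**Figure D4:**
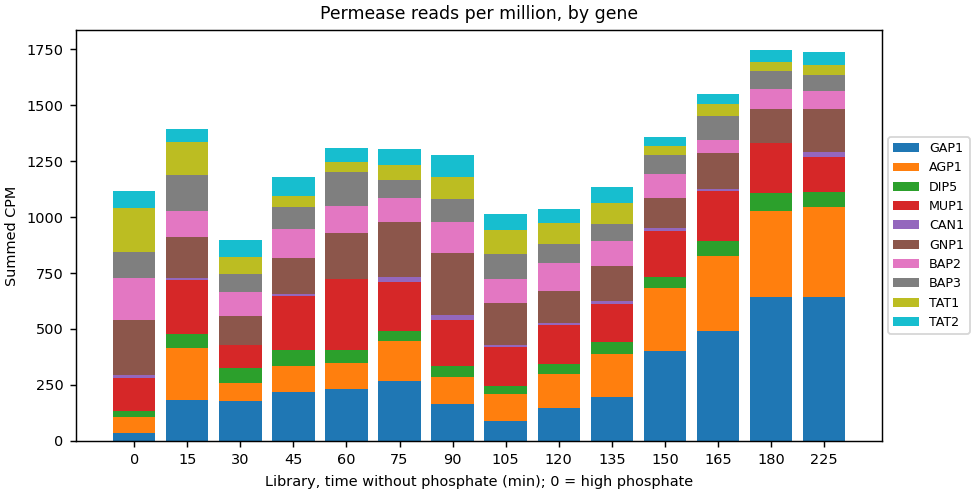
Summed level of the 10 permease genes (CPM, y axis, from 0) in the 14 deeper libraries by time without phosphate (min), stacked by gene. The sum goes from 1115 CPM at 0 min to 1740 CPM at 225 min, and GAP1 with AGP1 from 9.50% to 60.0% of it.

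Per kilobase of coding sequence the order of levels at 0 min was GNP1 (124 CPM per kb), TAT1 (106), BAP2 (103), MUP1 (86.7), BAP3 (63.5), TAT2 (41.2), AGP1 (38.4), GAP1 (18.2), DIP5 (14.3) and CAN1 (6.89). The 95% Poisson intervals of neighbours overlapped for TAT1 and BAP2, TAT2 and AGP1, and GAP1 and DIP5. At 225 min GAP1 (354 CPM per kb) and AGP1 (212) led, followed by GNP1 (96.3), MUP1 (91.7), BAP2 (44.8), BAP3 (39.8), DIP5 (37.8), TAT2 (34.1), TAT1 (23.3) and CAN1 (10.6). GNP1 and MUP1 overlapped there, as did each neighbouring pair from BAP2 down to TAT1. GAP1 moved from the eighth place to the first and TAT1 from the second to the ninth.

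Among the 4495 genes with all 14 deeper values, the courses most like that of GAP1 by Pearson correlation of log2 levels were ENO1 (0.978), a glycolytic enolase, and PRB1 (0.977), a vacuolar protease. Those nearest TAT1 were LHP1 (0.975), an RNA-binding protein of tRNA maturation, and MIS1 (0.975), a mitochondrial enzyme of folate metabolism. AGP1 was nearest MNN4 (0.948), which acts in cell wall mannan phosphorylation, and YLR046C (0.935). For DIP5 they were BET4 (0.916) and FMS1 (0.914), for BAP2 HTS1 (0.916) and DYS1 (0.901), for GNP1 YHR003C (0.884) and ENA5 (0.869). For TAT2 they were TED1 (0.879) and TAD3 (0.838), for MUP1 MRPL13 (0.876) and MDV1 (0.845), and for BAP3 RAX2 (0.787) and GRX8 (0.783). Between the permeases themselves GAP1 and AGP1 correlated at 0.842, GAP1 and DIP5 at 0.829, and GAP1 and TAT1 at -0.858. Values of this size were common: AGP1 ranked only 472 among the 4495 genes by likeness to GAP1, and GAP1 ranked 34 by likeness to AGP1. The points share 14 libraries of 1 course, whose errors are common to all genes.

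Of 7 tested further amino acid permease genes, PUT4 rose and MMP1 fell. PUT4, the proline permease and like GAP1 a known target of nitrogen catabolite repression, rose by 3.47 ± 0.60 (log2, SE, 11 values; limma adjusted p = 0.00769). MMP1, the S-methylmethionine permease, fell by 2.63 ± 0.47 (limma adjusted p = 0.0071). Of 21 tested genes of nitrogen catabolite repression, targets and regulators together, 5 rose and 0 fell on the slope, against 3.10% and 3.29% of all genes. They included DAL80, a GATA repressor (2.19 ± 0.35, limma adjusted p = 0.00443), DUR3, the urea and polyamine permease (1.99 ± 0.40, limma adjusted p = 0.0139), DAL3, ureidoglycolate lyase (1.58 ± 0.39, limma adjusted p = 0.0277), and GAT1, the GATA activator (1.20 ± 0.28, limma adjusted p = 0.0227). The median fitted change of that list was 0.59, against 0.09 over all genes and -0.15 over the 10 permeases. In the third hour 13 of these 21 genes were at least 2-fold above 0 min and 0 below (22.4% and 10.9% of all genes). The list was chosen with earlier results of these data known, so its counts are description only.

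Of 11 tested genes of the SPS pathway, 1 rose, STP1 (1.02 ± 0.26, limma adjusted p = 0.0289), and 0 fell. The ratio of STP1 to 0 min was -0.35 ± 0.13 (log2, SD) in the first hour and 0.30 ± 0.39 in the third. Over all genes 3.10% rose and 3.29% fell, so counts this small in short lists, here and below, say little about them. None of the 16 tested genes of permease folding and trafficking passed the slope test. The kinase gene NPR1, whose product stabilises Gap1 at the plasma membrane, had a fitted change of 0.56 ± 0.33 (limma adjusted p = 0.313), and GTR1, whose product is a GTPase of TORC1 signalling, one of 0.96 ± 0.32 (limma adjusted p = 0.0851). Of 12 tested vacuolar amino acid transporters 0 passed, with RTC2 at 1.72 ± 0.59 (limma adjusted p = 0.0869) and AVT2 at 1.06 ± 0.41 (limma adjusted p = 0.13). Among 3 tested genes of peptide and related uptake, PTR2, the SPS-induced dipeptide transporter, fell by 1.32 ± 0.33 (limma adjusted p = 0.0272), while DAL5 (1.19 ± 0.45) and OPT1 (-1.15 ± 0.40) did not pass. PTR2 fell from a level above 0 min, with ratios of 1.19 ± 0.18 in the first hour and 0.32 ± 0.25 in the third (log2, SD). It stood at 3.77 log2 CPM at 0 min and 3.89 at 225 min.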

How the data were processed

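The deposited table holds 1 value per gene and library. From the values, the authors deposited log2 CPM, that is, read counts divided by a total before the log was taken. Raised back, the listed genes of each library sum to 1000000 or nearly so, and that total thus holds listed genes only. The normalization to the first time point that the series describes is not seen in the values. Per the submitters' processing notes reads were aligned with Bowtie to build R64; counting program, annotation, strand and multiple matches are not given in the sources used here. Genes under a floor have no value. Low values are whole multiples of the floor divided by 10 (94.3% to 97.6% in the deeper libraries, 90.4% to 91.2% in the shallow ones, tolerance 0.01 reads). The floor was therefore taken as 10 reads and depth recovered from it. Of 137 permease values in the 14 deeper libraries 131 are whole reads, and the rest, such as 851.5 reads at 0 min, are all of GNP1. Why these are fractional was not tested. Of 6701 entries, 51 without a name and 1 name on 2 entries were left out. No pseudocount was used.

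limma 3.58.1 in R 4.3.3 (eBayes with trend) tested slope, natural spline and hour contrasts. Slope and spline needed at least 8 of 13 values. Hour contrasts needed at least 3 values an hour and were called at an adjusted p under 0.05 and a difference of at least 1 log2 unit. All tests were two-sided, save the spline's F, and adjusted over all genes tested. The slope and the contrast of the third with the first hour were tried on simulated data with independent errors, and the others were not. No label says whether libraries came from 1 or several cultures, so p-values measure the spread around time or within an hour only. Named genes were all 10 permeases, up to 4 called genes of each further list by size (otherwise the 2 largest changes), and the 2 courses nearest each permease. Alternatives covered libraries, scaling, missing values, variance, autocorrelation and leaving out each library. Members and lists were chosen with earlier results of these data known. Upstream windows, loci and identities were read from R64 with Biopython 1.88.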

Additional observations from a re-analysis of the deposited data

How the results depend on the processing

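Relative to the values given, 2 permeases (AGP1, GAP1) and 338 genes were called on the slope. With all 15 libraries 1 permease and 100 genes were called, with 0 min added 3 permeases (TAT1 falling) and 714 genes, and 1 permease (AGP1) centred on the median gene or without the variance trend. The spline called 1 permease and 144 genes, 24 genes with all 15 libraries, 2 permeases and 474 genes with 0 min added, and 2 permeases after quantile normalization. From the first to the second hour 10 genes were called, 16 centred, 19 after quantile normalization and 27 with autocorrelation removed. The autocorrelation estimated for all hour contrasts was -0.055. From the second to the third 16 were called, 10 among genes with all values, and 99 with autocorrelation removed, 1 permease among them. From the first to the third 3 were called, 12 after quantile normalization and 13 with autocorrelation removed. The median permease ratio to 0 min of the first hour went from 0.02 to -0.25 when centred, and that of the second from 0.02 to -0.31 when centred and -0.32 after quantile normalization, under which 1 permease was at least 2-fold higher in the first hour. In the third hour 2 were higher and 3 lower when centred, against 3 and 2. The cause was not tested.

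Leaving out each library in turn gave 0 to 2 permeases and 57 to 417 genes on the slope, and 0 to 3 and 31 to 941 on the spline. Second minus first hour gave 0 permeases and 0 to 51 genes, the third minus the second 0 to 3 and 0 to 640, and the third minus the first 0 to 2 and 1 to 182. Median ratios to 0 min ranged from -0.07 to 0.22, from -0.17 to 0.21 and from -0.41 to -0.22 in the 3 hours. Permeases at least 2-fold higher numbered 2 to 3, 1 to 2 and 3, and those lower 1, 0 to 1 and 1 to 2.

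Directions that turned were uncalled ones. The slope of GNP1 was 0.15 and that of MUP1 0.37 with all 15 libraries, and MUP1 0.040 with 0 min added; the difference of second and first hours for BAP2 was -0.044 centred and -0.024 after quantile normalization. Leaving out 1 library turned MUP1 on the slope (-0.56 to 0.078) in the second (-0.44 to 0.11) and in the third hour against the first (-0.36 to 0.18), AGP1 (-0.086 to 0.43), BAP2 (-0.066 to 0.059) and TAT2 (-0.020 to 0.21) in the second against the first, and DIP5 (-0.16 to 0.048) in the third against the first. Depth limits CAN1 and the libraries labelled 195 and 210 min, where a permease value rests on 11 to 18 reads. No paired analysis was possible because no time point has a second library.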
